A study of Mus musculus with 12 samples.

Results

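The genes described here are 38 mouse genes of the lysosome and of autophagy, out of 32665 genes and transcripts on the array. They were chosen by symbol from a list, and each gene is represented by the probe that carried its RefSeq accession and had the highest mean signal over all arrays. All 38 were among the 19318 genes and transcripts tested. RNA came from BV2 cells, an immortalised mouse microglial line used in place of primary microglia. The 4 groups were cells given 100 ng/ml LPS together with 20 µM curcumin, cells given 20 µM curcumin, cells given 100 ng/ml LPS, and untreated cells. Treatments lasted 6 h, and the labels name no vehicle for curcumin. Each group had 3 one-colour arrays, and the labels do not say whether these came from separate cultures, so the p-values measure only the spread between these arrays. LPS is a bacterial cell wall component that activates microglia through Toll-like receptor signalling, and curcumin is the yellow polyphenol of turmeric.

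Lysosomes are acidic organelles in which proteases, glycosidases and lipid hydrolases break down material that arrives from endocytosis, phagocytosis and autophagy. A vacuolar-type proton pump keeps the lumen acidic, and membrane proteins such as Lamp1 line it. In autophagy, cytoplasm is enclosed in a double membrane whose formation needs the Ulk1 kinase, the Becn1 complex and lipid-linked proteins of the LC3 and GABARAP families, and the vesicle then fuses with a lysosome. The MiT/TFE transcription factors Tfeb, Tfe3 and Mitf are known to bind the CLEAR motif in promoters of many of these genes, and mTORC1 on the lysosomal surface restrains Tfeb. Microglia are the phagocytes of the brain and carry a large lysosomal compartment.

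By role the 38 genes comprise 7 lysosomal proteases (Ctsa, Ctsb, Ctsd, Ctsl, Ctss, Ctsz, Tpp1), 6 glycosidases (Hexa, Gaa, Gla, Glb1, Gusb, Neu1) and 4 lipid hydrolases (Ppt1, Asah1, Smpd1, Lipa). Another 7 are membrane and lipid-transfer proteins (Lamp1, Lamp2, Scarb2, Mcoln1, Npc1, Npc2, Psap), and 4 are proton pump subunits (Atp6v0d1, Atp6v0d2, Atp6v1a, Atp6v1h). The remaining genes are 3 MiT/TFE factors and 7 autophagy genes (Gabarapl1, Map1lc3b, Uvrag, Wipi1, Becn1, Ulk1, Atg5).

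Promoters were searched for the core of the CLEAR motif, TCACGTGA, in the window from 250 bases before to 50 bases after each gene's start (RefSeq, GRCm38.p6). The motif is its own reverse complement, so both strands give the same matches, and it contains the shorter E-box CACGTG. A window was at hand for 32 of the 38 genes. The core was found in 6 of these 32 (18.8%), namely Ctsa, Ctsd, Mcoln1, Atp6v0d1, Atp6v1a and Gla, against 304 of all 27025 genes with a window (1.12%). The E-box was found in 11 of the 32 (34.4%), against 2187 of the 27025 (8.09%). A match describes the letters only and was not tested as a binding site. The stretches around the core are shown for Ctsd (chr7:142387883-142387962), Gla (chrX:134601190-134601255), Atp6v0d1 (chr8:105566061-105566104) and Atp6v1a (chr16:44139348-44139427), because these genes hold the core and were called higher with curcumin on 75th percentile scaling. All 4 lie on the minus strand, are written 5′ to 3′ in the direction of the gene, and have the core in capitals.
Ctsd: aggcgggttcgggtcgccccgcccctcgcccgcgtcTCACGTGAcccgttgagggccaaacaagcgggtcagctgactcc
Gla: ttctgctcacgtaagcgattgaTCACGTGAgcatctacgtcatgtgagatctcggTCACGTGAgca
Atp6v0d1: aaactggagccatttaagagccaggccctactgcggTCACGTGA
Atp6v1a: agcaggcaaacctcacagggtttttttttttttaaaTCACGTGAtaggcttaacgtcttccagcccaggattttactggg
The Gla stretch holds the core at 2 places. Of the 7 genes with a window that were called higher with curcumin on 75th percentile scaling, 4 hold the core, against 2 of the 25 not called, a description without a test. The called set changed with the scaling and with single arrays left out, as given below. Ctsa counts as not called, although another of its probes was called. The share called among all tested genes that hold the core is not given, so no link between core and curcumin can be read from these counts. Among 133 other lysosome and autophagy genes with a window, 9 hold the core (6.77%).

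The 12 arrays lay on 3 slides of 4, each slide carrying 1 array of every group, with each group always at the same position of the slide. The replicate number is the slide and the scan, so within-slide changes are given below. The 75th percentile of signal ran between 304 and 979, and 58.0 to 65.9% of spots were well above background. LPS+curcumin replicate 2 had 1594 spots marked as outliers, against 87 to 163 on the other arrays. Levels are log2 signal minus each array's 75th percentile unless spike-in scaling is named, which subtracts the level of the control RNAs measured by 7 spike-in probes. The array's 75th percentile minus its spike-in level was -1.36, -2.27 and -2.62 (log2) in LPS+curcumin cells and -2.05, -2.17 and -2.35 in curcumin cells. It was -1.48, -1.41 and -1.20 in LPS cells and -0.99, -0.97 and -1.30 in untreated cells. Changes in curcumin-treated cells therefore shift together between the scalings, and the median over all tested genes is given beside them. LPS+curcumin replicate 1 stood apart from replicates 2 and 3 of its group. Its mean correlation was 0.982 with LPS arrays and 0.950 with curcumin arrays, whereas replicate 2 had 0.939 and 0.984 and replicate 3 had 0.922 and 0.985. Of 14 microglial and macrophage markers on the array, 13 were detected on all 12 arrays, whereas the astrocyte markers Gfap, Aqp4 and Aldh1l1 were detected on none. The number of arrays limits the precision of every value.

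Curcumin compared with untreated cells asks what the compound alone does to these transcripts. On 75th percentile scaling 8 of the 38 genes were called higher (limma, adjusted p below 0.05) and none lower, at a background of 21.9% of all tested genes higher and 7.27% lower, so the members' share lay close to the background. The called genes were the protease Ctsd, the glycosidases Hexa and Gla, the cholesterol-transfer protein Npc2, the pump subunits Atp6v0d1 and Atp6v1a, and the autophagy genes Map1lc3b and Becn1. With spike-in scaling 13 genes were called lower and none higher, at a background of 43.5% lower and 7.24% higher. No gene of the 38 was called in one direction on all 4 scalings, against 6.73% of tested genes higher and 6.90% lower. The members' median change was 0.47 on 75th percentile scaling and -0.63 on spike-in scaling, beside 0.41 and -0.69 over all tested genes.

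The lysosomal aspartic protease Ctsd had levels of 8.44, 7.79 and 7.99 in curcumin cells, against 7.56, 6.76 and 7.01 in untreated cells. Every curcumin array lay above every untreated array. The change was 0.96 ± 0.31 (log2, SE, n = 3 a group), a 1.95-fold higher signal, with adjusted p = 0.0408 by limma, and it was 0.88, 1.03 and 0.99 on slides 1, 2 and 3. On spike-in scaling Ctsd had levels of 6.39, 5.62 and 5.64 in curcumin cells, against 6.58, 5.79 and 5.71 in untreated cells. These ranges overlapped, and the change was -0.14 ± 0.36 with adjusted p = 0.737. Relative to the median of all tested genes Ctsd was higher by 0.55, and 82.3% of tested genes had a smaller signed change.

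Among proton pump subunits, Atp6v1a, of the part that hydrolyses ATP, had levels of 3.19, 3.06 and 3.34 in curcumin cells, against 2.28, 2.29 and 2.43 in untreated cells. The groups did not overlap, and the change was 0.86 ± 0.21 (adjusted p = 0.0137, limma). Atp6v0d1, of the membrane-embedded part, had 4.74, 4.48 and 4.88 in curcumin cells, against 3.73, 3.64 and 3.93 in untreated cells. Its groups did not overlap either, with a change of 0.93 ± 0.28 (adjusted p = 0.0292). The remaining pair did not pass the test. Atp6v1h changed by 0.71 and narrowly missed the threshold (adjusted p = 0.0509, limma), whereas Atp6v0d2, a subunit of osteoclasts and macrophages, changed by 0.17 ± 0.53. With the slide as a block Atp6v1h was called higher, at a background of 31.2% in that fit. Against the spike-in probes the changes of Atp6v1a and Atp6v0d1 were -0.24 and -0.17, and no pump subunit was called.

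Npc2, which carries cholesterol within the lysosomal lumen, had levels of 5.95, 5.81 and 6.02 in curcumin cells, against 5.15, 4.90 and 5.002 in untreated cells. Each curcumin array exceeded each untreated array, and the change was 0.90 ± 0.25 (adjusted p = 0.0226, limma). Becn1, a component of the lipid kinase complex that starts the autophagic membrane, had 3.19, 2.89 and 3.02 in curcumin cells, against 2.42, 2.16 and 2.08 in untreated cells. Here too the groups were separate, with a change of 0.82 ± 0.22 (adjusted p = 0.0218). Map1lc3b, which encodes the LC3 protein attached to autophagic membranes, had 6.24, 6.07 and 6.43 in curcumin cells, against 5.47, 5.39 and 5.53 in untreated cells. Its change was 0.78 ± 0.26 (adjusted p = 0.0447), with no overlap. Spike-in changes were -0.20 for Npc2, -0.29 for Becn1 and -0.33 for Map1lc3b, none of them called.

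The glycosidases Gla, which removes galactose from glycolipids, and Hexa, a subunit of hexosaminidase, changed by 0.76 ± 0.20 and 0.78 ± 0.25 (adjusted p = 0.0203 and 0.0382, limma). Gla levels were 3.72, 3.45 and 3.68 in curcumin cells, against 3.02, 2.68 and 2.86 in untreated cells, with no overlap. Their spike-in changes were -0.34 for Gla and -0.32 for Hexa, neither called. The list medians on 75th percentile scaling were 0.66 for proteases, 0.51 for glycosidases, 0.38 for lipid hydrolases, 0.54 for membrane and lipid-transfer proteins, 0.79 for pump subunits, -0.12 for MiT/TFE factors and 0.38 for autophagy genes, beside 0.41 over all tested genes. By role, 1 of 7 proteases, 2 of 6 glycosidases, 0 of 4 lipid hydrolases, 1 of 7 membrane and lipid-transfer proteins, 2 of 4 pump subunits, 0 of 3 MiT/TFE factors and 2 of 7 autophagy genes were called higher.

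The 13 genes called lower on spike-in scaling were 1 protease, 2 glycosidases, 3 lipid hydrolases, 3 membrane proteins, 2 MiT/TFE factors and 2 autophagy genes. The sialidase Neu1 and the sphingomyelinase Smpd1 changed by 0.01 ± 0.19 and -0.08 ± 0.27 on 75th percentile scaling. On spike-in scaling they changed by -1.10 ± 0.30 and -1.19 ± 0.41 (adjusted p = 0.0132 and 0.0322, limma). Neu1 spike-in levels were 3.16, 2.64 and 2.60 in curcumin cells, against 4.17, 3.81 and 3.72 in untreated cells. All 3 curcumin arrays lay below the untreated ones. Lamp2, a lysosomal membrane protein used in chaperone-mediated autophagy, had spike-in levels of 3.03, 2.98 and 2.96 in curcumin cells, against 4.13, 3.90 and 3.54 in untreated cells. These were separate, with a change of -0.87 ± 0.22 (adjusted p = 0.0105), beside 0.24 ± 0.25 on 75th percentile scaling. Uvrag, a Becn1 partner, changed by -0.90 ± 0.23 on spike-in scaling (adjusted p = 0.0116) and 0.21 ± 0.27 on 75th percentile scaling.

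Tfeb, a master regulator of lysosomal genes, had the lowest change of the 38 in this comparison on both scalings. Its levels were -3.19, -3.66 and -3.78 in curcumin cells, against -2.87, -3.08 and -3.24 in untreated cells. The groups overlapped in that the highest curcumin array exceeded the lowest untreated one, and the change of -0.48 ± 0.23 did not pass the test (adjusted p = 0.124, limma). Spike-in levels of Tfeb were -5.24, -5.83 and -6.14 in curcumin cells, against -3.86, -4.05 and -4.54 in untreated cells. There the groups were separate, and the change was -1.59 ± 0.39 (adjusted p = 0.00946). Its relative Tfe3, also a MiT/TFE factor, changed by -1.22 ± 0.42 on spike-in scaling (adjusted p = 0.0312) and by -0.12 ± 0.22 on 75th percentile scaling. Relative to the median of all tested genes, Tfeb stood at -0.90, and 15.8% of tested genes had a smaller signed change. Its mean level in curcumin cells was -3.55 on 75th percentile scaling, and among the 38 only Atp6v0d2 lay lower there (-3.62). The changes of Tfeb therefore rest on dim signal, although its probe was marked well above background on all arrays. Tfe3 is represented by probes that differ in sign in this comparison, at -0.12 for the probe used and 0.12 and 0.40 for the others. The MiT/TFE list median of -0.12 is the value of that probe used.

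Lamp1, Ctsb, Gabarapl1 and Ulk1 did not pass the test on 75th percentile scaling with the probe used for each gene. Lamp1, the major lysosomal membrane glycoprotein, had levels of 5.96, 5.85 and 5.95 in curcumin cells, against 5.40, 5.32 and 5.40 in untreated cells. The groups were separate, with a change of 0.55 ± 0.22 (adjusted p = 0.0762, limma). On spike-in scaling the change of Lamp1 was -0.55 ± 0.21 (adjusted p = 0.0458), the opposite sign. Ctsb, a cysteine protease, changed by 0.66 ± 0.25 (adjusted p = 0.0681), Gabarapl1 by 0.38 ± 0.20 (adjusted p = 0.145) and Ulk1 by 0.44 ± 0.19 (adjusted p = 0.0974). Of the 38 genes, 19 had another tested probe, and for some of these genes the probes disagreed. The other probe of Ctsb changed by 1.63 (adjusted p = 0.00302) and that of Gabarapl1 by 1.34 (adjusted p = 0.00146), so both passed where the probe used did not. For Ctsa the probe used changed by 0.70 and did not pass (adjusted p = 0.0531). Its other probes split around the threshold. One changed by 0.66 and passed (adjusted p = 0.0484), and another changed by 0.82 and did not (adjusted p = 0.0513). Of the 8 called genes, Ctsd, Atp6v1a and Map1lc3b had another tested probe, and it was called higher as well.

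Across the 38 genes, 28 were higher in every curcumin array than in every untreated array on 75th percentile scaling, beside 47.5% of tested genes. On spike-in scaling 25 of 38 were lower in every curcumin array, beside 61.2% of tested genes. On spike-in scaling all 38 were lower in curcumin cells within each of the 3 slides, with medians of -0.62, -0.74 and -0.48, beside -0.73, -0.84 and -0.53 over all tested genes. The share of all tested genes lower within each slide is not given. In the change between group means, 14.7% of all tested genes were positive on this scaling, so most genes were lower. The slide medians on 75th percentile scaling were 0.44, 0.46 and 0.58, beside 0.33, 0.36 and 0.52 over all tested genes. With the slide as a block 14 genes were called higher, at a background of 31.2%. The count of 8 was sensitive to single arrays: it was 0 without untreated replicate 2 or curcumin replicate 3, 1 without untreated replicate 3 or curcumin replicate 1, and 5 without untreated replicate 1, curcumin replicate 2 or LPS replicate 3. It was 22 without LPS+curcumin replicate 3. The share of all tested genes called is not given for these fits, so the counts do not separate the members from all genes. Without LPS+curcumin replicate 1, the array that stood apart, 18 genes were called higher at a background of 37.0%, and on spike-in scaling 21 were called lower at a background of 54.3%. The 13 genes called lower on spike-in scaling became 3 without untreated replicate 1 or curcumin replicate 3, and 4 without untreated replicate 2 or curcumin replicate 2. For those fits too the share of all tested genes is not given.

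**Figure D1:**
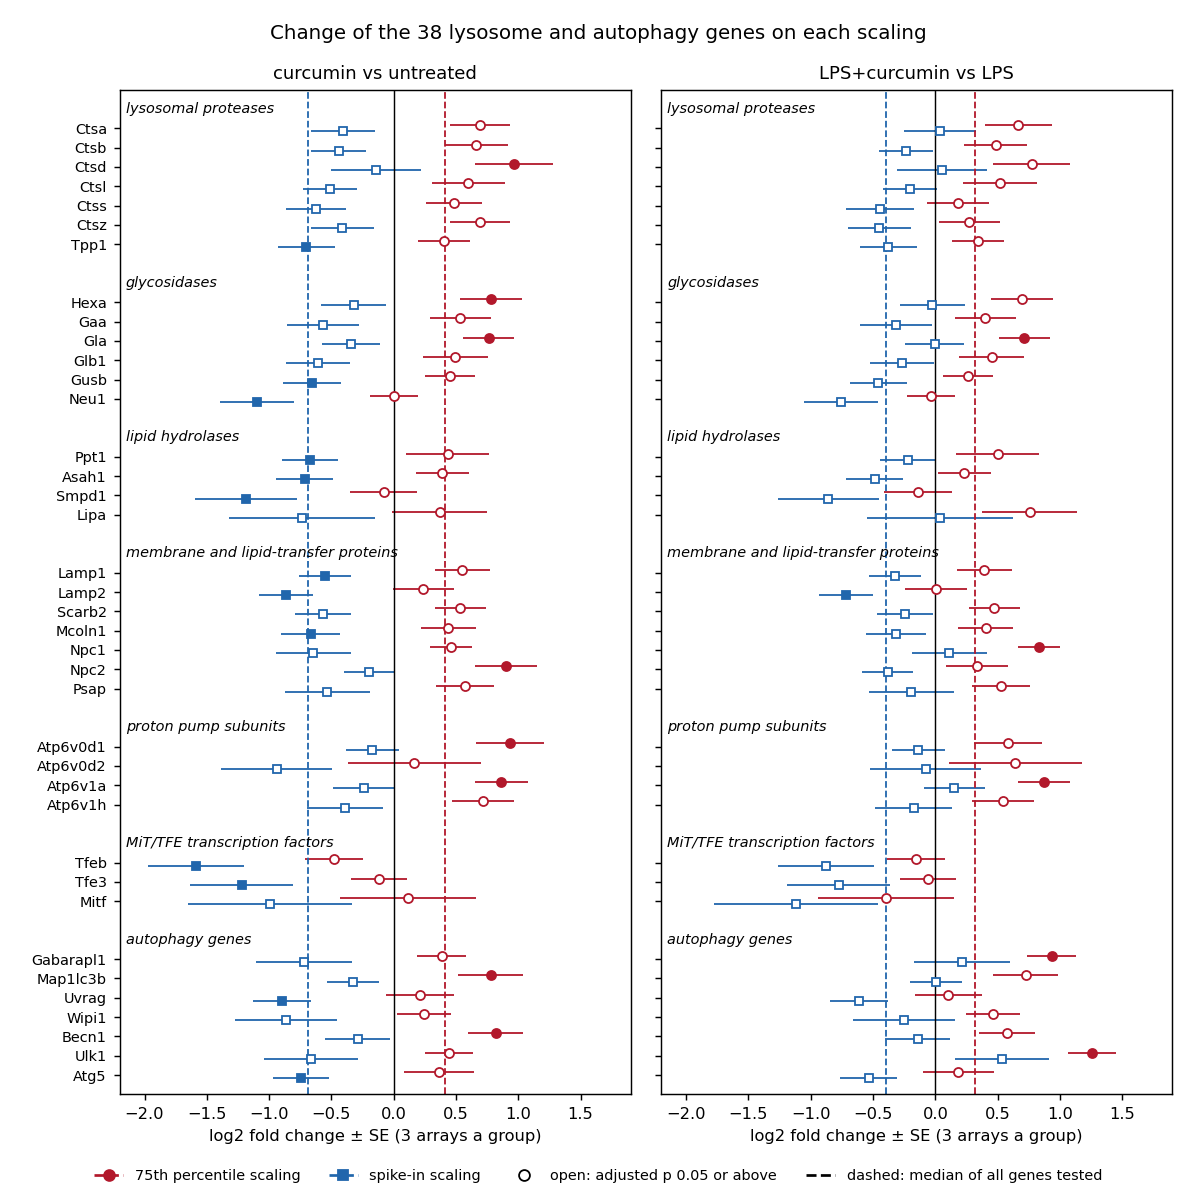
Log2 fold change ± SE of the 38 genes, grouped by role, for curcumin against untreated cells (left) and LPS+curcumin against LPS cells (right), with red circles for 75th percentile scaling and blue squares for spike-in scaling. Filled symbols passed adjusted p 0.05, and the dashed lines give the median of all tested genes on each scaling, at 0.41 and -0.69 on the left and 0.32 and -0.40 on the right.

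LPS compared with untreated cells asks how microglial activation alone moves these genes. On 75th percentile scaling 1 of the 38 was called, the autophagy kinase Ulk1, which fell, at a background of 1.61% of tested genes lower and 4.12% higher. On spike-in scaling no gene of the 38 was called, against 1.87% of tested genes higher and 1.51% lower. On all 4 scalings 1.75% of tested genes were called higher and 0.673% lower, and none of the 38 were among them. At an unadjusted p below 0.05, 3 of the 38 (7.89%) passed on 75th percentile scaling and 6 (15.8%) on spike-in scaling, beside 15.6% and 16.9% of all tested genes. On spike-in scaling 1 gene was called lower without LPS+curcumin replicate 1 (background 5.69%) or LPS replicate 3 (background not given). The members' median change was -0.12 on 75th percentile scaling and -0.39 on spike-in scaling, beside 0.01 and -0.27 over all tested genes.

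Ulk1, the kinase that starts autophagosome formation, had levels of 2.10, 2.10 and 2.24 in LPS cells, against 3.14, 3.10 and 2.76 in untreated cells. All LPS arrays lay below all untreated arrays. The change was -0.85 ± 0.19 (adjusted p = 0.0268, limma), and it was -1.04, -0.99 and -0.52 on slides 1, 2 and 3. On spike-in scaling the levels were 0.62, 0.69 and 1.04 in LPS cells, against 2.15, 2.12 and 1.46 in untreated cells. The groups were again separate, but the change of -1.13 ± 0.38 did not pass the test (adjusted p = 0.149). The call on 75th percentile scaling was lost without untreated replicate 1 or 2 or any of the LPS arrays, with adjusted p up to 0.131. Another probe of Ulk1 changed by -0.89 and did not pass (adjusted p = 0.0758).

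Atp6v0d2, the pump subunit of osteoclasts and macrophages, had levels of -5.26, -5.61 and -4.28 in LPS cells, against -4.01, -4.11 and -3.22 in untreated cells. The LPS arrays lay lower on each slide, by -1.25, -1.50 and -1.06, and all LPS arrays lay below all untreated arrays. The change was -1.27 ± 0.53 with adjusted p = 0.266 by limma. Blocking on the slide gave adjusted p = 0.00741, at a background of 2.53% called lower in that fit. Atp6v0d2 had the lowest mean level of the 38 in LPS cells (-5.05) and in untreated cells (-3.78). Its change therefore rests on dim signal, although the probe was marked well above background on all arrays. Mitf, a MiT/TFE factor, had -0.01, 0.39 and -1.58 in LPS cells, against -0.80, -1.95 and -2.10 in untreated cells, with overlap. It changed by 1.22 ± 0.55 (adjusted p = 0.311), and by 0.79, 2.34 and 0.52 on the 3 slides. Tfeb changed by -0.48 ± 0.23 (adjusted p = 0.379). Map1lc3b, Lamp1 and Ctsd changed by -0.06, -0.01 and -0.07, within their standard errors of 0.26, 0.22 and 0.31. On 75th percentile scaling 9 of the 38 were lower in every LPS array than in every untreated array, beside 15.8% of tested genes.

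**Figure D2:**
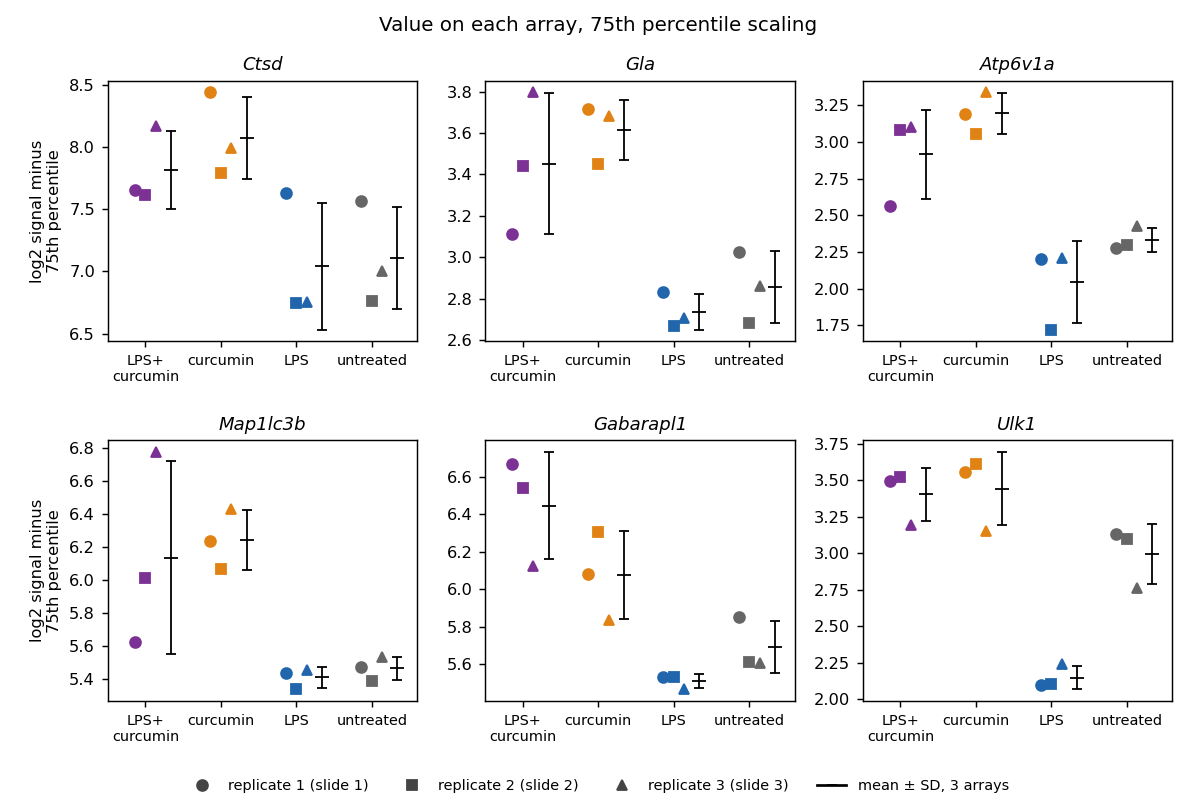
Level on each array (log2 signal minus the 75th percentile) for Ctsd, Gla, Atp6v1a, Map1lc3b, Gabarapl1 and Ulk1, with 1 symbol shape per slide and bars for mean ± SD of 3 arrays. Ulk1 was lowest in LPS cells at 2.10, 2.10 and 2.24, whereas the curcumin arrays of Ctsd, Gla, Atp6v1a and Map1lc3b lay above the untreated arrays.

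LPS+curcumin compared with LPS cells asks what curcumin does to activated cells, and it rests partly on the array that stood apart. On 75th percentile scaling 5 of the 38 genes were called higher and none lower, at a background of 12.7% higher and 5.99% lower, again a share close to the background. These were Ulk1, Gabarapl1, the pump subunit Atp6v1a, the cholesterol transporter Npc1 and the glycosidase Gla. On spike-in scaling 1 gene, Lamp2, was called lower (-0.72 ± 0.22, adjusted p = 0.0464, limma) and none higher, at a background of 11.8% lower and 4.86% higher. No gene was called lower there on leaving out each array in turn, except untreated replicate 3 (1 gene) and LPS+curcumin replicate 1 (12 genes). No gene of the 38 was called on all 4 scalings, where 3.54% of tested genes were called higher and 5.45% lower. The members' median change was 0.47 on 75th percentile scaling and -0.25 on spike-in scaling, beside 0.32 and -0.40 over all tested genes.

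Ulk1 had levels of 3.49, 3.52 and 3.20 in LPS+curcumin cells, against 2.10, 2.10 and 2.24 in LPS cells. Every LPS+curcumin array lay above every LPS array. The change was 1.26 ± 0.19, a 2.39-fold higher signal (adjusted p = 0.00301, limma), and 1.40, 1.42 and 0.96 on slides 1, 2 and 3. On spike-in scaling Ulk1 had 2.13, 1.25 and 0.57 in LPS+curcumin cells, against 0.62, 0.69 and 1.04 in LPS cells. Those ranges overlapped, and the change was 0.54 ± 0.38 (adjusted p = 0.313).

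Gabarapl1, a GABARAP-family protein attached to autophagic membranes, had 6.67, 6.54 and 6.12 in LPS+curcumin cells, against 5.54, 5.53 and 5.47 in LPS cells. The groups were again separate, and the change was 0.93 ± 0.20 (adjusted p = 0.0116, limma). Npc1, the membrane transporter that receives cholesterol from Npc2, had 1.46, 1.34 and 1.59 in LPS+curcumin cells, against 0.65, 0.42 and 0.82 in LPS cells. These were separate as well, and the change was 0.83 ± 0.17 (adjusted p = 0.00946). Its slide changes were 0.80, 0.92 and 0.78.

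Atp6v1a had 2.57, 3.08 and 3.10 in LPS+curcumin cells, against 2.20, 1.72 and 2.21 in LPS cells. The groups were separate, the lowest LPS+curcumin array being replicate 1, and the change was 0.87 ± 0.21 (adjusted p = 0.0196, limma). Gla had 3.11, 3.44 and 3.80 in LPS+curcumin cells, against 2.83, 2.67 and 2.71 in LPS cells, with no overlap. Its change was 0.71 ± 0.20 (adjusted p = 0.036). On slide 1, which carries the array that stood apart, the changes of Atp6v1a and Gla were 0.36 and 0.28. On spike-in scaling the 5 genes changed by 0.54 (Ulk1), 0.21 (Gabarapl1), 0.11 (Npc1), 0.15 (Atp6v1a) and -0.01 (Gla).

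Map1lc3b had 5.62, 6.01 and 6.77 in LPS+curcumin cells, against 5.44, 5.34 and 5.46 in LPS cells. The groups were separate, but replicate 1 lay only just above the LPS arrays, and the change of 0.73 ± 0.26 did not pass the test (adjusted p = 0.0716, limma). Ctsd changed by 0.77 ± 0.31 (adjusted p = 0.101), Ctsb by 0.48 ± 0.25 (adjusted p = 0.181) and Lamp1 by 0.39 ± 0.22 (adjusted p = 0.202). Other probes of Map1lc3b and Ctsb did pass, with changes of 0.97 (adjusted p = 0.0173) and 1.53 (adjusted p = 0.00641). Other probes of Ulk1, Gabarapl1 and Atp6v1a were called higher like the probes used, at 1.29, 1.79 and 0.74. Tfeb changed by -0.16 ± 0.23 (adjusted p = 0.623).

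The list medians in this comparison were 0.48 for proteases, 0.43 for glycosidases, 0.37 for lipid hydrolases, 0.40 for membrane and lipid-transfer proteins, 0.61 for pump subunits, -0.16 for MiT/TFE factors and 0.58 for autophagy genes, beside 0.32 over all tested genes. Changes were positive for all 7 proteases, 7 membrane proteins, 4 pump subunits and 7 autophagy genes, for 5 of 6 glycosidases and 3 of 4 lipid hydrolases, and for 0 of 3 MiT/TFE factors. For Tfe3, Mitf and Neu1 the negative sign held only for the probe used. Their other probes changed by 0.30 and 0.34 (Tfe3), 0.16 (Mitf) and 0.02 (Neu1), none of them called. In all 33 of the 38 were positive (86.8%), beside 68.1% of tested genes, and on spike-in scaling 8 of the 38 (21.1%), beside 23.7%. Lipa, which hydrolyses cholesteryl esters, had 3.99, 3.07 and 2.53 in LPS+curcumin cells, against 2.84, 2.18 and 2.29 in LPS cells. These ranges overlapped, LPS+curcumin replicate 1 being the highest.

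The slides differed. The members' median change was -0.04 on slide 1, 0.42 on slide 2 and 0.88 on slide 3, beside 0.01, 0.27 and 0.65 over all tested genes. On slide 1, 16 of 38 genes were higher in LPS+curcumin cells, against 29 of 36 on slide 2 and 37 of 38 on slide 3. The share of all tested genes higher on each slide is not given, so these counts do not separate the members from all genes. The 6 genes above 0.5 on slide 1 were the acid lipase Lipa at 1.15, Ulk1 at 1.40, Gabarapl1 at 1.13, Npc1 at 0.80, Atp6v1h at 0.69 and the autophagy protein Wipi1 at 0.55. On spike-in scaling the slide medians were 0.08, -0.43 and -0.54, beside 0.13, -0.59 and -0.77 over all tested genes. Over all slides 9 of the 36 genes measured on all arrays were higher in every LPS+curcumin array than in every LPS array, beside 19.4% of tested genes.

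Without LPS+curcumin replicate 1, 18 genes were called higher on 75th percentile scaling, at a background of 40.5%, and 12 were called lower on spike-in scaling, at a background of 44.4%. The 5 genes stayed called, with changes of 1.21 for Ulk1, 0.82 for Gabarapl1, 1.05 for Atp6v1a, 0.83 for Npc1 and 0.88 for Gla. Map1lc3b then changed by 0.98 (adjusted p = 0.00468, limma). With the slide as a block, all arrays included, 11 genes were called higher, at a background of 20.1%. The count of 5 was 2 without LPS+curcumin replicate 2 and 3 without LPS replicate 2, fits for which no share of all tested genes is given. Ulk1 and Npc1 stayed called without any one array, Gabarapl1 missed the threshold without LPS+curcumin replicate 2, and Atp6v1a missed it without LPS replicate 2 or LPS+curcumin replicate 2. The call of Gla was lost on leaving out each of the other 11 arrays, but not on leaving out LPS+curcumin replicate 1.

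**Figure D3:**
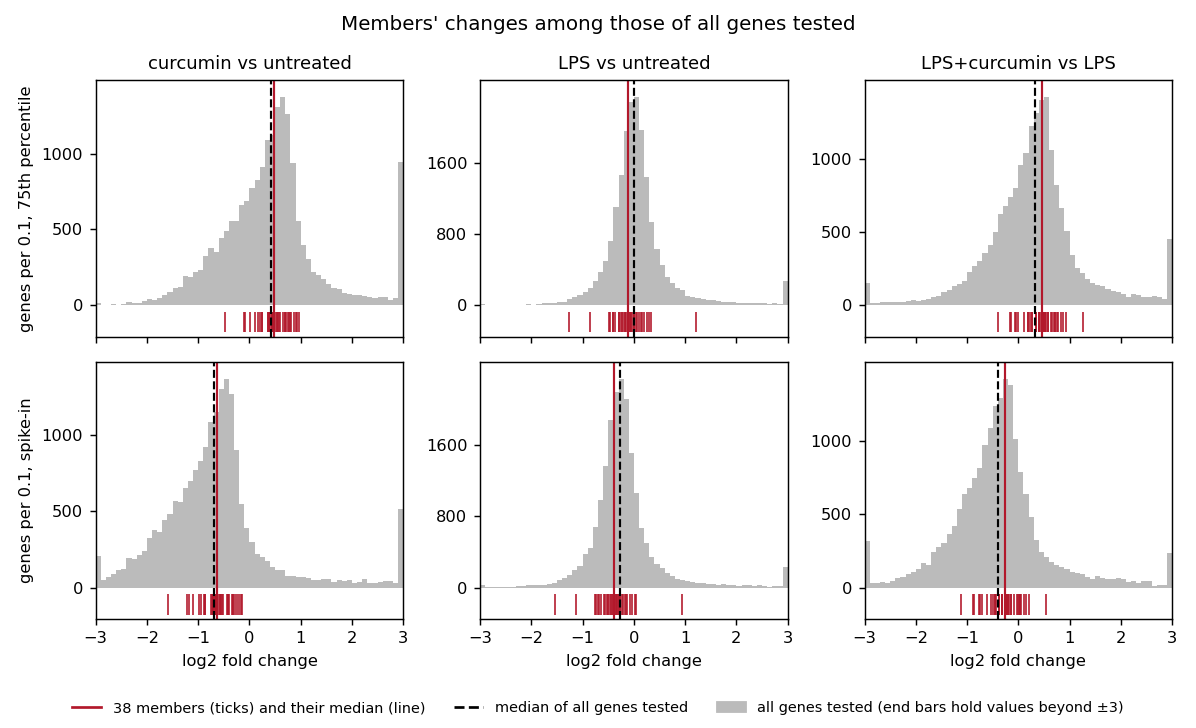
Distribution of log2 fold changes of all 19318 tested genes (grey) with the 38 genes as ticks, for 3 comparisons and 2 scalings, in counts of genes per 0.1 log2 unit. The red line is the members' median and the dashed line that of all tested genes, at 0.47 and 0.41 for curcumin against untreated cells on 75th percentile scaling.

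LPS+curcumin compared with curcumin cells asks what LPS adds in the presence of the compound. None of the 38 genes was called on either scaling (limma), and 0 passed an unadjusted p below 0.05 on either scaling, beside 5.84% of all tested genes on 75th percentile and 4.98% on spike-in scaling. The background of adjusted calls was 0.202% of tested genes higher and 0.0104% lower on 75th percentile scaling, and 0.0984% higher and 0.00518% lower on spike-in scaling. The members' median change was -0.17 and -0.06 on the 75th percentile and spike-in scalings, beside -0.09 and 0.02 over all tested genes. Ulk1 had 3.49, 3.52 and 3.20 in LPS+curcumin cells, against 3.56, 3.61 and 3.15 in curcumin cells. These ranges overlapped, and the change was -0.04 ± 0.19 (adjusted p = 0.979). Gabarapl1 changed by 0.37 ± 0.20 (adjusted p = 0.869).

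Whether LPS changed the response to curcumin was tested by the interaction, the curcumin change in LPS-treated cells minus that in cells without LPS. None of the 38 was called (limma), and 1 passed an unadjusted p below 0.05 on each scaling, beside 6.64% of all tested genes on 75th percentile and 5.72% on spike-in scaling. The background of adjusted calls was 0.0207% of tested genes higher and 0.709% lower on 75th percentile scaling, and 0.0155% higher and 0.269% lower on spike-in scaling. Ulk1 had an interaction of 0.81 ± 0.28 (adjusted p = 0.409), from a curcumin change of 1.26 with LPS and 0.44 without it. Gabarapl1 had 0.55 ± 0.28 (adjusted p = 0.885), from 0.93 with LPS and 0.38 without it. The interaction of Ctsd was -0.19 ± 0.44 (adjusted p = 1) and that of Tfeb 0.33 ± 0.33 (adjusted p = 1). Without LPS+curcumin replicate 1 the counts called were 0 in the interaction and 0 in LPS+curcumin against curcumin cells. On 75th percentile scaling the background there was 0.230% higher and 1.99% lower in the interaction. It was 0.327% higher and 0.0408% lower in LPS+curcumin against curcumin cells.

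Hydrolases were set beside autophagy genes through the mean change of 15 hydrolases measured on all arrays and of the 7 autophagy genes. In curcumin against untreated cells the means were 0.50 for hydrolases and 0.46 for autophagy genes, a difference of 0.03, with slide differences of 0.08, -0.02 and 0.04. In LPS against untreated cells the means were -0.08 and -0.29, a difference of 0.22, with slide differences of 0.33, 0.26 and 0.07. The autophagy mean lay below the hydrolase mean on each slide. In LPS+curcumin against LPS cells the means were 0.42 and 0.61, a difference of -0.19, with slide differences of -0.41, -0.25 and 0.09. Without LPS+curcumin replicate 1 that difference was -0.17. In LPS+curcumin against curcumin cells the difference was -0.01, and 0.02 without that array. On spike-in scaling the means were -0.61 and -0.64, -0.35 and -0.57, and -0.30 and -0.11 in the first 3 comparisons. Either scaling subtracts a single value per array, so the differences are the same on both by construction. They therefore say nothing about the choice of scaling. These are values without a test, and with 3 slides no call on the difference is made. Ulk1 had the lowest change of the 7 autophagy genes with LPS (-0.85) and the highest in LPS+curcumin against LPS cells (1.26), on 75th percentile scaling. The list medians there were -0.11 for all 17 hydrolases and -0.18 for autophagy genes with LPS. In LPS+curcumin against LPS cells they were 0.45 and 0.58. Both comparisons share the LPS arrays.

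**Figure D4:**
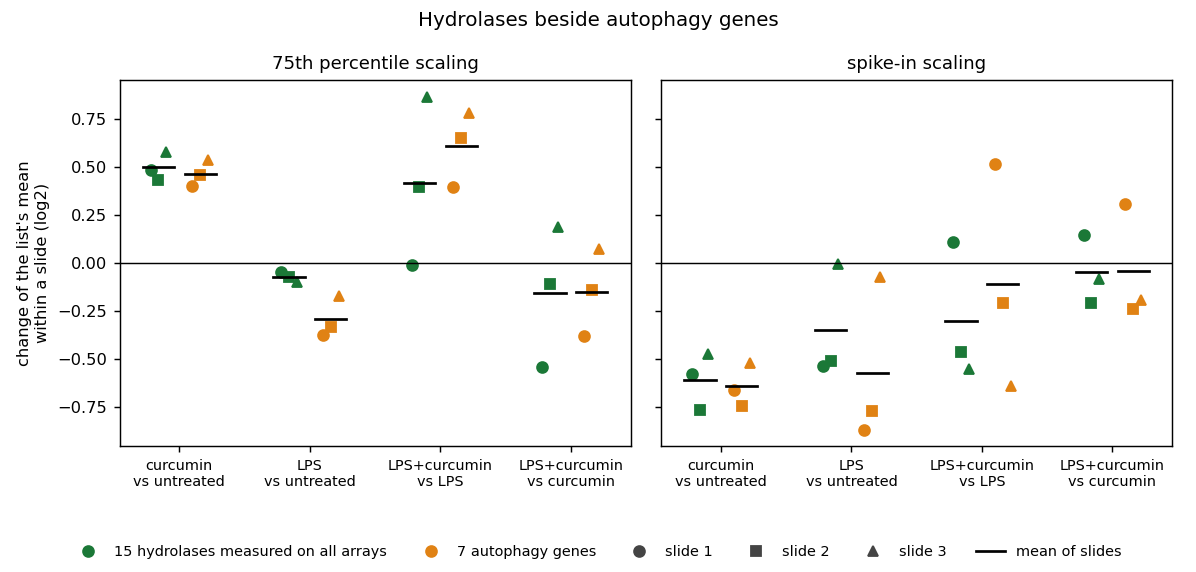
Mean log2 change of the 15 hydrolases measured on all arrays (green) and of the 7 autophagy genes (orange) within each slide, on 75th percentile scaling (left) and spike-in scaling (right). Each shape is a slide and the bar is the mean of 3 slides, which was -0.08 for hydrolases and -0.29 for autophagy genes in LPS against untreated cells.

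A wider list of 151 tested lysosome, pump, autophagy and mTORC1 genes, none among the 38, gives the surroundings. In curcumin against untreated cells 27 were higher and 14 lower on 75th percentile scaling, 3 and 71 on spike-in scaling, and 3 and 11 on all 4 scalings. Over all tested genes the shares were 21.9% and 7.27%, 7.24% and 43.5%, and 6.73% and 6.90%. Those higher on all 4 were the forkhead factor Foxo3 (4.002 ± 0.96 on 75th percentile scaling, adjusted p = 0.0131), the mTORC1 inhibitor Sesn2 (2.99 ± 0.38, adjusted p = 0.000831) and the sorting receptor Sort1 (2.10 ± 0.36, adjusted p = 0.00272), by limma. Foxo3 missed the threshold without curcumin replicate 3. Among those lower were the kinase Ulk2 (-1.85 ± 0.44, adjusted p = 0.0127), the fusion adaptor Plekhm1 (-1.83 ± 0.44, adjusted p = 0.013) and Gnptab (-0.89 ± 0.23, adjusted p = 0.0172), a subunit of the enzyme that tags hydrolases for the lysosome. Ulk2 and Plekhm1 missed the threshold without curcumin replicate 3, and Gnptab without untreated replicate 2 or 3 or curcumin replicate 3.

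In LPS against untreated cells 6 of the 151 were higher and 4 lower, beside 4.12% and 1.61% of all tested genes, and on all 4 scalings 1 and 2, beside 1.75% and 0.673%. The acid phosphatase Acp5, a marker of osteoclasts and activated macrophages, rose by 3.58 ± 0.47 (adjusted p = 0.00079, limma). The heparan sulphate sulphatase Sgsh changed by -2.42 ± 0.27 (adjusted p = 0.000266) and the sialic acid transporter Slc17a5 by -1.43 ± 0.21 (adjusted p = 0.00159). In LPS+curcumin against LPS cells 18 were higher and 7 lower, beside 12.7% and 5.99% of all tested genes, and on all 4 scalings 1 and 5, beside 3.54% and 5.45%. Sesn2 rose by 2.30 ± 0.38 (adjusted p = 0.00387), while Acp5 changed by -2.32 ± 0.47 (adjusted p = 0.00946) and the anti-apoptotic Bcl2l1 by -2.23 ± 0.33 (adjusted p = 0.00253). These calls of Acp5, Sgsh, Slc17a5, Sesn2 and Bcl2l1 held on 75th percentile scaling without any one array. No gene of the 151 was called in LPS+curcumin against curcumin cells or in the interaction, except that with the slide as a block the interaction of Sgsh passed (1.89 ± 0.38, adjusted p = 0.0459 with the block and 0.0522 without it).

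**Figure D5:**
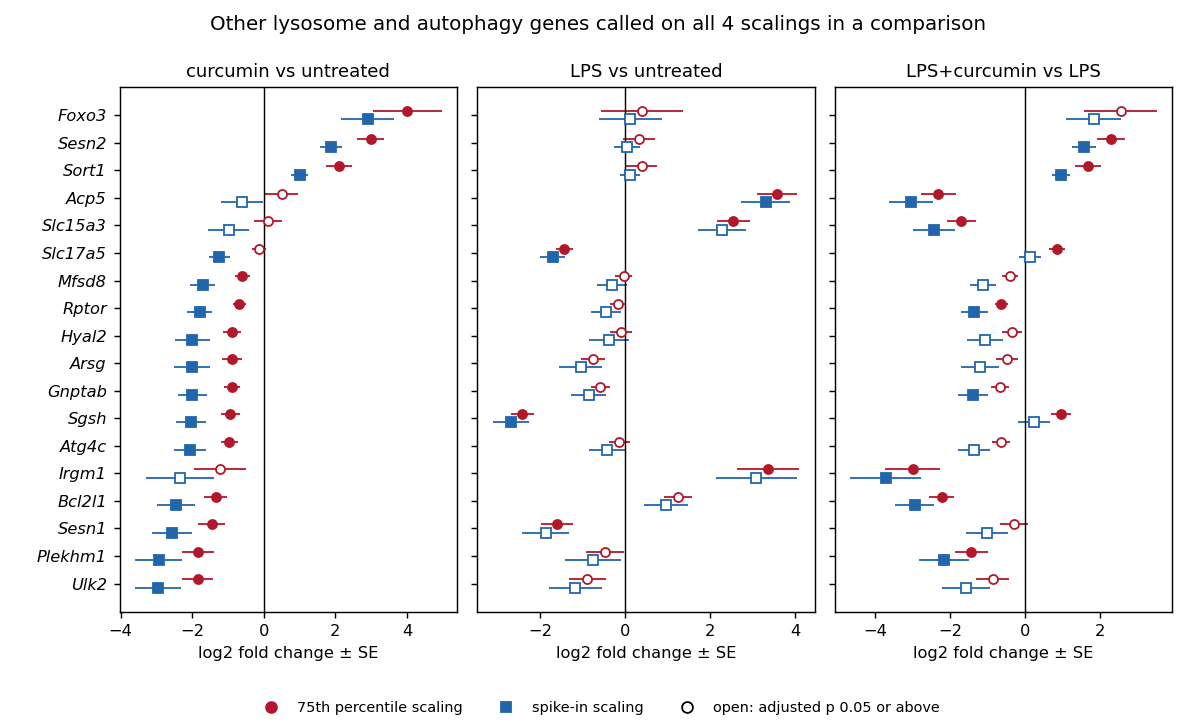
Log2 fold change ± SE of the 18 other lysosome and autophagy genes called on all 4 scalings in some comparison, with red circles for 75th percentile scaling, blue squares for spike-in scaling and open symbols where adjusted p was 0.05 or above. Acp5 was at 3.58 in LPS against untreated cells and at -2.32 in LPS+curcumin against LPS cells on 75th percentile scaling.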

How the data were processed

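Total RNA from 12 BV2 samples was Cy3-labelled and read on Agilent one-colour arrays, per the labels' protocols. The authors deposited scanner files whose processed signal is an intensity, background-subtracted, made with Agilent Feature Extraction 10.5.1.1 per the file headers and 9.1 per the submitters' processing notes. They also deposited a table of intensity values, which differed from the processed signal by at most 0.397%. Control spots and spots marked as outliers were left out, which removed Ctsa and Ctss on LPS+curcumin replicate 2. Spots of a probe were averaged and the log2 value was taken relative to the 75th percentile of its array. RefSeq accessions of the probes were matched to symbols, which named 25097 of 41174 probes (17305 symbols), and 1 probe was kept per gene. Genes well above background on all arrays of a group were tested with limma 3.58.1 in R 4.3.3 (means of 4 groups, Benjamini-Hochberg adjustment over 19318 genes, threshold 0.05). Alternatives were spike-in (7 of 10 probes, those over a signal of 50 on every array), quantile and median scaling, normexp with offset 50 on the median signal (the planned mean signal column was not used), no filter, the deposited table, the slide as a block, and each array left out.

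The members and lists were chosen with earlier results of these data known. Per comparison, text names up to 5 called genes in each direction, with Lamp1, Ctsd, Ctsb, Tfeb, Map1lc3b, Gabarapl1 and Ulk1 always, and up to 3 called genes per direction of each wider list. Replicate numbers are slides: deviations of same-numbered arrays correlated between -0.02 and 0.71, above 0.1 in 16 of 18 pairs. The hydrolase mean used the 15 genes measured on all arrays in place of the planned 17. The scripts were tested on simulated data. The number of arrays limits precision.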

Additional observations from a re-analysis of the deposited data

How the results depend on the processing

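Counts of called genes moved with the processing, and the causes were not tested. The share of all tested genes called moved as well. Higher calls for curcumin against untreated cells covered 21.9% of tested genes, 31.2% with the slide as a block and 37.0% without LPS+curcumin replicate 1. For LPS+curcumin against LPS cells they covered 12.7%, 20.1% and 40.5%. Lower calls on spike-in scaling covered 43.5% and 11.8% in the same order. Most other settings have no such share here, so their counts do not separate members from all genes. For curcumin against untreated cells the 8 became 13 (all lower) on spike-in, 4 on quantile, 1 on median scaling, 0 with normexp, 5 without the filter and 14 with the slide as a block (replicate block), 17 with spike-in scaling and the block together, and 0 to 22 with 1 array left out. For LPS against untreated cells the 1 became 0 on spike-in and median scaling, with normexp and without the filter, 2 with the block, and 0 to 1 with 1 array left out. For LPS+curcumin against LPS cells the 5 became 1 (lower) on spike-in and 0 on median scaling, 0 with normexp, 11 with the block, 3 with spike-in scaling and the block, and 2 to 18 with 1 array left out. The 2 other comparisons stayed at 0 under each of these. On spike-in scaling, with or without the replicate block, curcumin changes reversed to -0.14 for Ctsd, -0.32 for Hexa, -0.34 for Gla, -0.20 for Npc2, -0.17 for Atp6v0d1, -0.24 for Atp6v1a, -0.33 for Map1lc3b and -0.29 for Becn1. On median scaling they were -0.055 for Hexa, -0.0767 for Gla, -0.060 for Map1lc3b and -0.0203 for Becn1, and with normexp -0.0516 for Hexa, -0.069 for Gla and -0.0454 for Map1lc3b. Gla in LPS+curcumin against LPS cells was -0.0056 on spike-in and -0.0193 on median scaling. With normexp, hydrolases minus autophagy genes was -0.21 for curcumin against untreated cells and 0.19 for LPS+curcumin against curcumin cells. The difference was not refitted without the filter or with the block, which leave it as it is.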

Other observations

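Other lysosome and autophagy genes were called on 75th percentile scaling, Irgm1 and Slc15a3 in comparisons with LPS cells and Galc in curcumin against untreated cells. The immunity-related GTPase Irgm1, which acts in autophagy of microbes, changed by 3.36 ± 0.73 in LPS against untreated cells (adjusted p = 0.0202, limma) and by -2.995 ± 0.73 in LPS+curcumin against LPS cells (adjusted p = 0.0204). The endolysosomal peptide transporter Slc15a3 changed by 2.55 ± 0.38 (adjusted p = 0.00191) and by -1.70 ± 0.38 (adjusted p = 0.0144) in the same comparisons, which share the LPS arrays. On spike-in scaling neither was called in LPS against untreated cells, at 3.09 for Irgm1 (adjusted p = 0.121) and 2.27 for Slc15a3 (adjusted p = 0.0528), and both were called in LPS+curcumin against LPS cells, at -3.72 and -2.42. Galc, a galactolipid hydrolase, was higher by 1.14 ± 0.26 in curcumin against untreated cells (adjusted p = 0.0105), but the change was 0.03 ± 0.26 on spike-in scaling. Leaving out LPS replicate 1 or LPS+curcumin replicate 2 ended the LPS+curcumin against LPS call of Slc15a3. The calls of Irgm1 were lost without any one of the LPS or untreated arrays in LPS against untreated cells, and in LPS+curcumin against LPS cells without any LPS array or LPS+curcumin replicate 2 or 3.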
